A study of Mus musculus with 8 samples.

Results

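Brown adipose tissue (BAT) burns fuel to make heat, and its cells are supplied by a dense bed of small vessels. The 10 genes described here encode angiogenic growth factors and their receptors: Vegfa, Vegfb, Vegfc, Pgf, Kdr, Flt1, Angpt1, Angpt2, Tek and Esm1. They were taken as the rows of the deposited expression table whose gene symbol is one of these names, and all 10 were found among the 49452 genes of the table. This rule uses no measured value.

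Growth factors of the VEGF family are secreted proteins that act on receptor tyrosine kinases of endothelial cells, the cells that line vessels. Vegfa encodes the main driver of vessel growth and permeability and acts through Kdr (VEGFR2), whereas Flt1 (VEGFR1) binds VEGF-A tightly, signals weakly and can hold it away from Kdr. Placental growth factor (Pgf) and VEGF-B bind Flt1, and VEGF-C acts chiefly on lymphatic endothelium. Angiopoietin 1 (Angpt1), made by cells around the vessel, activates the endothelial receptor Tek (Tie2) and keeps vessels quiescent, while angiopoietin 2 (Angpt2), made by endothelial cells, can oppose it. Esm1 encodes a secreted proteoglycan of endothelial tip cells, the cells that lead a vessel sprout. In BAT, brown adipocytes are a known source of Vegfa.

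RNA-Seq was performed on BAT of male C57BL/6 mice, with 8 libraries in 4 groups of 2. The question was which transcripts follow BAT function under cold exposure and under high-fat feeding. Mice of the temperature experiment were 10 to 12 weeks old and were housed at 22 °C (replicates 4 and 7) or held at 4 °C for 24 h (replicates 2 and 11), of which the last 4 h were without food. Mice of the diet experiment were 32 weeks old and had received a normal chow diet (NCD, replicates 6 and 8) or a high-fat diet (HFD, replicates 2 and 6) for 28 weeks. No group carried a transgene or a deletion. The methods call the NCD food a control diet, and they leave unclear whether the mice at 22 °C were fasted. The labels do not say whether the libraries of a group came from separate animals, so the p-values below measure the spread between these libraries.

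Values are FPKM, the fragments of a gene scaled to the length of its transcript in kilobases and to the fragments mapped in its library. Levels can therefore be compared between genes per length. Fold changes were computed on log2(FPKM + 1), which understates the change of genes with low FPKM. A gene was called when limma gave an adjusted p under 0.05 and a log2 fold change no smaller than 1, up or down. In bulk tissue, fewer cells of a type and less RNA per cell cannot be told apart.

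Between 10228 and 11436 genes reached 1 FPKM per library. The summed FPKM of 12 brown adipocyte markers lay between 3888 and 11062 in all 8 libraries, led by Ucp1, Cox8b and Cox7a1. Skeletal muscle markers were present as well and differed widely between libraries, as given beside the comparisons. The satellite-repeat gene Gm10800 exceeded 100 FPKM in replicate 4 at 22 °C, replicate 11 at 4 °C, NCD replicate 8 and HFD replicate 2, called satellite-high below, and stayed far under it in the other library of each group. All genes of the X and Y chromosomes were listed at 0 in both 22 °C libraries and in NCD replicate 6, and at most 1 of 37 mitochondrial genes was above 0 there against 15 elsewhere, so these were left out of the tests. None of the 10 genes lies on these chromosomes. The summed FPKM of all genes was 214794 to 351150 at 22 °C, 623157 to 759446 at 4 °C, 526722 to 743484 under NCD and 723387 to 823343 under HFD. Over autosomal genes alone it was 214794 to 296839 at 22 °C and 252146 to 466737 at 4 °C. The part of these totals in the results was not tested beyond the other scalings given with the limits.

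The promoters of 8 of the 10 genes were found among RefSeq promoter windows of assembly GRCm38.p6, in 10 windows. The 250 bases before the annotated start are printed for Vegfa, Flt1 and Pgf, because for these genes both 4 °C values exceeded both 22 °C values. The same held for Angpt2, but no window was found for Angpt1 or Angpt2. The Vegfa window is chr17:46032378-46032627, the Flt1 window chr5:147726012-147726261 and the Pgf window chr12:85177314-85177563, all on the minus strand and written 5′ to 3′ along the gene. Capitals mark the GC box letters GGGCGG or, on the other strand, CCGCCC, and in Flt1 also the cAMP response element palindrome TGACGTCA.
Vegfa: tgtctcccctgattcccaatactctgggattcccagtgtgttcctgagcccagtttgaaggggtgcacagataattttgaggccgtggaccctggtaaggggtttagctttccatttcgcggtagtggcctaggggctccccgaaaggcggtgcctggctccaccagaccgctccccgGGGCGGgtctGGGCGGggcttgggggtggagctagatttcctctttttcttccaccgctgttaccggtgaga
Flt1: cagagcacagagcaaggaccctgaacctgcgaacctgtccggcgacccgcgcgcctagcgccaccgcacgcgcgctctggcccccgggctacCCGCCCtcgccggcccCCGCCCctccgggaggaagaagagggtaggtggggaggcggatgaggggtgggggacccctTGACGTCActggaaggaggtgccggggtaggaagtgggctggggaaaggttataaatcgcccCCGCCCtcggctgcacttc
Pgf: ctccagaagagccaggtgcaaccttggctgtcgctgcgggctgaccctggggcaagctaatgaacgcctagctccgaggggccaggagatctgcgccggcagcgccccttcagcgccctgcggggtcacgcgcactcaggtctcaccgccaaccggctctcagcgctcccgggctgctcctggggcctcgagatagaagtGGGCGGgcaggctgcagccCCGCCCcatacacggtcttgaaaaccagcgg

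The Vegfa window held 2 GC boxes, the Pgf window 2 and the Flt1 window 3, and 32.7% of all 32817 promoter windows of this length held at least 1. The palindrome TGACGTCA was found once in the Flt1 window and in 1.55% of all windows. The hypoxia-inducible factor core ACGTG was searched on both strands and is held by 16.6% of windows. The nuclear receptor half-site AGGTCA was searched in the same way and is held by 14.0% of windows. Neither was among the letters of these 3 windows. Vegfa and Pgf each have another RefSeq window, at a start further downstream. The other Vegfa window (chr17:46025164-46025413, minus strand) held 1 hypoxia-inducible factor core and 1 GC box, and the other Pgf window (chr12:85175983-85176232, minus strand) held none of the motifs searched. Among the windows not printed, that of Vegfb, a gene lower at 4 °C, held 4 GC boxes and 2 nuclear receptor half-sites. Those of Vegfc and Kdr held 2 GC boxes each, and those of Tek and Esm1 none of the motifs searched. A match of letters is a description of the window and not a binding site.

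The levels of the 10 genes spanned several orders of magnitude, and Vegfa stood far above the rest. Vegfa (ENSMUSG00000023951, chromosome 17, 46016993 to 46032369, minus strand, GRCm38, protein-coding) was the most abundant of the 10 in every group, with a mean of 84.6 FPKM ± 0.940 (SD, n = 2) at 22 °C, 143 ± 8.80 at 4 °C, 57.3 ± 11.8 under NCD and 68.0 ± 6.85 under HFD. Among autosomal protein-coding genes this placed it at the 97.3rd to 98.5th percentile of its group. Esm1 was the least abundant in every group, with means between 0.0385 and 0.133 FPKM. These levels rest on about 15222 to 51561 fragments per library for Vegfa and on about 3.99 to 31.9 for Esm1, estimated from the value of 1 fragment.

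**Figure D1:**
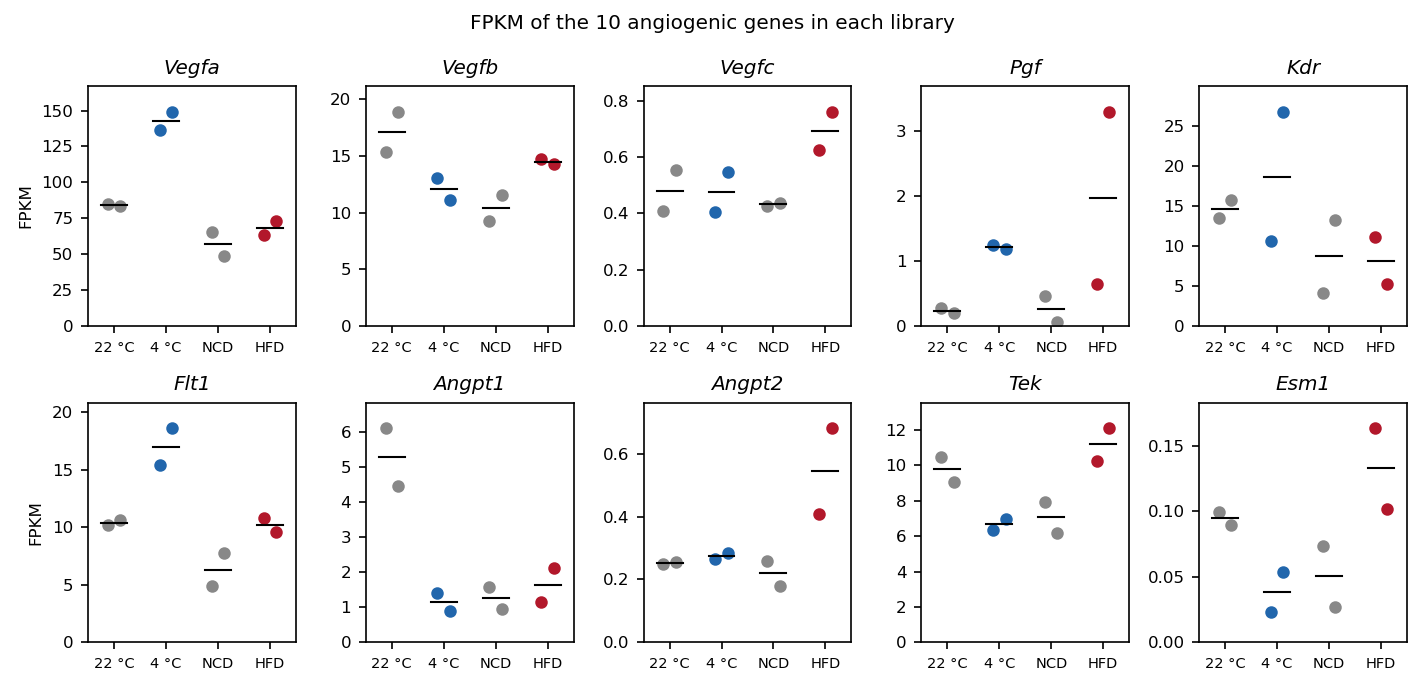
FPKM (vertical axes, linear and starting at 0) of the 10 genes in the 8 libraries, by group on the horizontal axes. Each point is 1 library and each bar is the mean of 2. Vegfa at 4 °C lay at 137 and 149 FPKM against 83.9 to 85.2 at 22 °C, and Angpt1 at 0.892 and 1.41 against 4.45 to 6.11.

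Below Vegfa, a middle tier held Vegfb, Kdr, Flt1 and Tek, with group means between 6.33 and 18.6 FPKM. Within this tier the order changed from group to group and several neighbours overlapped. At 22 °C the order was Vegfb, Kdr, Flt1 and Tek, where Vegfb did not separate from Kdr nor Flt1 from Tek. At 4 °C it was Kdr, Flt1, Vegfb and Tek, where Kdr overlapped both Flt1 and Vegfb. Under NCD it was Vegfb, Kdr, Tek and Flt1, and each overlapped the next. Under HFD it was Vegfb, Tek, Flt1 and Kdr, and Tek, Flt1 and Kdr overlapped.

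A low tier held Angpt1, Vegfc, Pgf and Angpt2. Angpt1 led this tier at 22 °C with 5.28 FPKM ± 1.17 (SD, n = 2) and did not exceed 1.65 ± 0.686 in the other groups, where it overlapped Pgf at 4 °C and under HFD. Vegfc stayed between 0.404 and 0.762 FPKM in all 8 libraries. Angpt2 was at 0.1803 to 0.681 FPKM and overlapped Pgf at 22 °C and under NCD, and Vegfc and Pgf under HFD. Pgf also overlapped Vegfc in both diet groups, and Esm1 under NCD.

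The first comparison asked how these genes differ in BAT between 4 °C for 24 h and 22 °C. Angpt1 fell at 4 °C and was the only one of the 9 tested genes to be called. Vegfa and Flt1 lay higher in both 4 °C libraries by a factor of about 1.69 and 1.64 in their means without passing the adjusted threshold. Pgf had an adjusted p under 0.05, but its change on the log2(FPKM + 1) scale was under the fold threshold. Of the 9 genes, 1 was called lower and 0 higher, where 0.223% of the 17477 genes tested were called lower and 1.22% higher. The background of calls in either direction was 1.44%. At an adjusted p under 0.05 with no fold threshold, Pgf and Angpt1 passed, as did 1.81% of all genes.

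Angpt1 (ENSMUSG00000022309, chromosome 15, 42424727 to 42676977, minus strand) was at 6.11 and 4.45 FPKM at 22 °C and at 1.41 and 0.892 FPKM at 4 °C. Both 22 °C libraries lay above every other library of the series, the diet groups included. The log2 fold change was -1.54 (SE 0.23, 95% interval -2.12 to -0.97, adjusted p = 0.0486, limma), and it was -1.91 between the satellite-high and -1.18 between the satellite-low libraries. The adjusted p was close to the threshold and ranged from 0.000529 to 0.855 over 17 alternative settings, with the gene called in 10 of them. Without 4 °C replicate 2 it was 0.121, without 4 °C replicate 11 it was 0.0648, and with a skeletal muscle score as covariate over all 8 libraries it was 0.217. The log2 fold change was negative in each of these settings and lay between -2.21 and -1.29.

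Gm17473, annotated on the opposite strand within Angpt1, was at 0.660 and 0.421 FPKM at 22 °C and at 0.104 and 0.0700 FPKM at 4 °C, so it was lower in the same libraries. The libraries were made with a directional kit, but whether the fragments were assigned by strand is not given in the sources used here, and reads of the pair may not be fully separated. Angpt1 rested on about 369 to 3111 fragments per library.

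Tek (chromosome 4, 94739289 to 94874976, plus strand), the receptor of both angiopoietins, was at 10.5 and 9.04 FPKM at 22 °C and at 6.37 and 6.99 FPKM at 4 °C. The groups did not overlap, and the log2 fold change was -0.49 (SE 0.19, 95% interval -0.96 to -0.01, adjusted p = 0.196). It was -0.74 after median centring and -0.78 after quantile normalization. After rescaling to the autosomal protein-coding sum without Ucp1 it was -0.85 (adjusted p = 0.0606, limma). With an endothelial score as covariate over all 8 libraries it was -1.28 (SE 0.75). Angpt2 (chromosome 8, 18690263 to 18741562, minus strand), the antagonist, was at 0.248 and 0.255 FPKM at 22 °C and at 0.265 and 0.284 FPKM at 4 °C. Its libraries lay close together without overlap, and the log2 fold change of 0.027 (SE 0.06, 95% interval -0.12 to 0.18, adjusted p = 0.819) was -0.23 after median centring and -0.38 (SE 0.28) with the endothelial score. The ratio of Angpt2 to Angpt1 within a library was 0.0406 and 0.0573 at 22 °C and 0.188 and 0.318 at 4 °C. This higher ratio at 4 °C followed the lower Angpt1 values.

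Vegfa was at 85.2 and 83.9 FPKM at 22 °C and at 137 and 149 FPKM at 4 °C. Both 4 °C libraries lay above all other libraries of the series. The log2 fold change was 0.75 (SE 0.23, 95% interval 0.17 to 1.33, adjusted p = 0.135, limma), with 0.80 between the satellite-high and 0.70 between the satellite-low libraries. Its size depended on scaling and was 0.49 after median centring, 0.34 after rescaling to the autosomal protein-coding sum without Ucp1 and 0.22 after quantile normalization. With a skeletal muscle score as covariate over all 8 libraries it was 1.07 (SE 0.47, adjusted p = 0.278, limma). With an endothelial score in its place it was -0.10 (SE 1.06). Vegfb (chromosome 19, 6982473 to 6987651, minus strand), the Flt1 ligand linked to fatty acid handling, was lower at 4 °C with 13.05 and 11.1 FPKM against 15.3 and 18.9 FPKM. The log2 difference was -0.47 (SE 0.21, adjusted p = 0.245), and it was -0.72 after median centring, -0.83 after quantile normalization and -0.85 after rescaling (adjusted p from 0.0483 to 0.0504), each under the fold threshold. With the endothelial score it was 0.28 (SE 0.81). The ratio of Vegfa to Vegfb was 5.56 and 4.44 at 22 °C and 10.5 and 13.4 at 4 °C, with no overlap.

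Pgf (ENSMUSG00000004791, chromosome 12, 85166639 to 85177296, minus strand) was at 0.272 and 0.197 FPKM at 22 °C and at 1.24 and 1.19 FPKM at 4 °C, a ratio of means of 5.19. The libraries of each group lay close together and far from those of the other group. The log2 fold change was 0.84 (SE 0.10, 95% interval 0.60 to 1.09, adjusted p = 0.036, limma). With a pseudocount of 0.1 in place of 1 it was 1.99 with an adjusted p of 0.0398, which would be a call. Without 4 °C replicate 2 the adjusted p was 0.119, after median centring 0.0814 at a change of 0.59, and with all 8 libraries in 1 fit 0.281. With the muscle score over all 8 libraries the change was 1.82 (SE 0.44, adjusted p = 0.152, limma), and with the endothelial score -1.11 (SE 1.01). Vegfc (chromosome 8, 54077606 to 54187096, plus strand) was at 0.408 and 0.555 FPKM at 22 °C and at 0.404 and 0.546 FPKM at 4 °C. Its groups overlapped, with a log2 fold change of -0.0064 (SE 0.10, 95% interval -0.26 to 0.24).

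Neither VEGF receptor gene was called, and a difference between their changes was not tested. Flt1 (chromosome 5, 147561604 to 147726011, minus strand) was at 10.2 and 10.6 FPKM at 22 °C and at 15.4 and 18.6 FPKM at 4 °C. The groups did not overlap, and the log2 fold change was 0.65 (SE 0.20, 95% interval 0.16 to 1.15, adjusted p = 0.130, limma). It was 0.40 after median centring, 0.29 after quantile normalization and 0.27 after rescaling. Kdr (chromosome 5, 75932827 to 75978458, minus strand) was at 13.5 and 15.7 FPKM at 22 °C and at 10.6 and 26.7 FPKM at 4 °C. Its 4 °C libraries lay on both sides of the 22 °C libraries, and the log2 fold change of 0.20 (SE 0.43, 95% interval -0.88 to 1.29) turned to -0.43 without 4 °C replicate 11 and was negative after each of 3 other scalings. Between the satellite-high libraries the difference was 0.93 and between the satellite-low libraries -0.53. The satellite-high library of a group had the higher Kdr value at 4 °C, under NCD and under HFD but not at 22 °C.

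Esm1 (chromosome 13, 113209659 to 113218098, plus strand) did not pass the filter on low values, 0.1 FPKM in at least 2 of the 4 libraries, in this comparison. It was at 0.0997 and 0.0895 FPKM at 22 °C and at 0.0230 and 0.0540 FPKM at 4 °C. The value of 3 fragments on a transcript of 2000 bases lies between 0.0131 and 0.0182 FPKM, and about 3.99 fragments stood behind the value of 4 °C replicate 2 and 10.99 behind that of replicate 11. Gzmk, on the opposite strand at Esm1, was at 0 to 0.176 FPKM over the 8 libraries, and Mcph1, on the opposite strand at Angpt2, at 0.735 to 2.02 FPKM, so both low members carry the same limit as Angpt1.

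**Figure D2:**
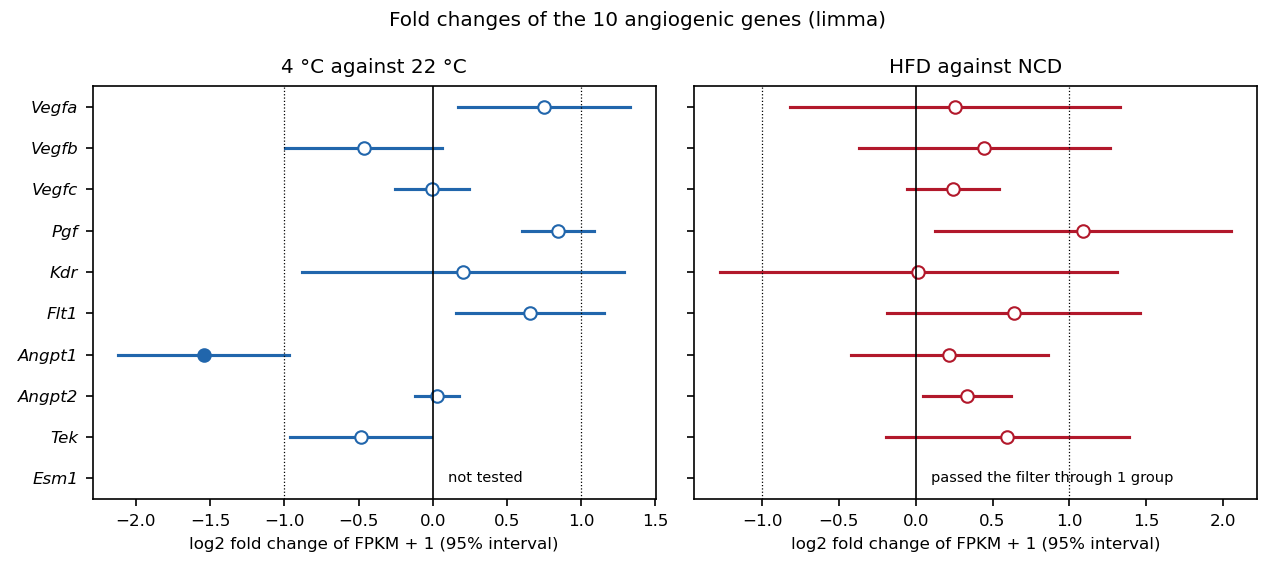
Log2 fold change of FPKM + 1 (horizontal axes) of each gene in the cold comparison (4 °C minus 22 °C, left) and the diet comparison (HFD minus NCD, right), from limma. Lines are 95% intervals, dotted lines mark the fold threshold, and a filled circle is a called gene. Angpt1 at 4 °C, at -1.54, is the only filled circle. Esm1 is not drawn, since it did not pass the filter at 4 °C and passed it through HFD alone in the diet comparison.

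Of the 9 tested genes, 4 had both 4 °C libraries above both 22 °C libraries (Vegfa, Pgf, Flt1 and Angpt2) and 3 had both below (Vegfb, Angpt1 and Tek). Over all genes tested, 37.9% lay above and 20.6% below in this way. A log2 fold change above 0 was found for 5 of the 9 genes and for 61% of all genes. The median was 0.027 over the 9 genes and 0.07 over all genes tested. After median centring these medians were -0.23 and -0.19, and after quantile normalization -0.032 and -0.029. Genes averaging 1 FPKM or more had a median of 0.20 as deposited and of -0.054 after median centring.

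Markers of vessel cells and of other cell types were summed per library, and some sums separated between these groups while others overlapped. The summed FPKM of 18 endothelial markers, led by Gpihbp1, Egfl7 and Pecam1, was 257 to 283 at 22 °C and 366 to 420 at 4 °C. Of the 18, limma called 0 and gave 9 an unadjusted p under 0.05, as it did 4280 of all genes. In both 4 °C libraries 12 lay above and 2 below, against 37.9% and 20.6% of all genes tested. The median log2 fold change of the 18 was 0.48. It was 0.23 after median centring and 0.19 after quantile normalization. Pericyte and smooth muscle markers, led by Rgs5, summed to 128 to 133 FPKM at 22 °C and 136 to 157 FPKM at 4 °C, with 7 of 11 above and 4 below, and 0 called. Lymphatic endothelial markers summed to 4.13 to 7.10 FPKM and 8.44 to 11.1 FPKM, with 0 of 6 tested genes called, 3 above and none below, and a median of 0.18 that was -0.074 after median centring.

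Skeletal muscle markers, led by Ckm and Tnnt3, summed to 108 to 530 FPKM at 22 °C and 1946 to 4276 FPKM at 4 °C, and all 11 lay above, with 1 called. Their median log2 fold change was 3.53. White adipocyte markers, led by Retn, summed to 85.9 to 148 FPKM and 151 to 286 FPKM, with 4 of 7 above, 1 of them called, and 3 below, Lep, Nnat and Mest. Macrophage markers summed to 47.2 to 66.3 FPKM at 22 °C and 53.9 to 117 FPKM at 4 °C, and stromal fibroblast markers to 197 to 326 FPKM and 197 to 334 FPKM, so both sums overlapped, and 0 genes of either list were called. Brown adipocyte markers summed to 3888 to 4658 FPKM at 22 °C and 9121 to 11062 FPKM at 4 °C, with 8 of 12 above, 2 below and 3 called higher. Of 6 proliferation markers, 5 lay below in both 4 °C libraries, 1 of them filtered in through 22 °C alone. The part of these cell types in the values of the 10 genes was not tested beyond the covariate settings given with the limits. The endothelial score nearly followed the groups, so its setting cannot separate vessel content from the comparison.

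Among other genes of the VEGF pathway, 1 of 17 tested was called. Hspb1, a small heat shock protein downstream of Kdr, rose from 21.6 and 20.1 FPKM at 22 °C to 117 and 98.4 FPKM at 4 °C, a difference of 2.31 on the log2 scale (SE 0.22, adjusted p = 0.0223). The adaptor gene Shb had a log2 fold change of 1.23 (adjusted p = 0.0722) and Rasip1, which acts in endothelial lumen formation, of 0.56 (adjusted p = 0.138). The co-receptor Nrp1 was at 35.2 and 54.3 FPKM at 22 °C and at 35.5 and 34.4 FPKM at 4 °C. Of the 17, 5 lay above and 2 below in both libraries, against 37.9% and 20.6% of all genes tested. The median log2 fold change of the 17 was 0.11. This median turned to -0.15 after median centring and to -0.072 after quantile normalization.

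Among 10 tested genes of the angiopoietin and Tie system, Svep1 was the called one. Svep1, a large matrix protein, fell from 9.99 and 8.36 FPKM at 22 °C to 2.72 and 2.46 FPKM at 4 °C, a log2 difference of -1.499 (SE 0.19, adjusted p = 0.0418) beside the -1.54 of Angpt1. Foxo1, a transcription factor restrained by Tek signalling, had a log2 fold change of 1.13 (adjusted p = 0.0517) and Ptprb, a phosphatase acting on Tek, of 0.53 (adjusted p = 0.154). Tie1, the partner receptor of Tek, was at 7.27 and 7.09 FPKM at 22 °C and at 6.19 and 5.70 FPKM at 4 °C. The median log2 fold change of the 10 was 0.13, and it was -0.13 after median centring and -0.086 after quantile normalization.

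Of 19 tested other secreted angiogenic factors, 1 was called. Fgf21, an endocrine fibroblast growth factor, rose from 0.0611 and 0.104 FPKM at 22 °C to 12.6 and 5.91 FPKM at 4 °C (log2 fold change 3.16, SE 0.34, adjusted p = 0.0299). Fgf9 was at 0.187 and 0.197 FPKM at 22 °C and at 1.14 and 1.21 FPKM at 4 °C, with an adjusted p of 0.0282 and a log2 fold change of 0.87, under the fold threshold as Pgf was. Fgf1 had a log2 fold change of 1.54 (adjusted p = 0.0513). In the list of 19, 11 lay above and 3 below in both libraries, against 37.9% and 20.6% of all genes tested. Of 13 endogenous inhibitors, limma called 0 (unadjusted p under 0.05 for 4) and 9 lay above, against the same 37.9%. Thbs1 had a log2 fold change of 1.03 (adjusted p = 0.120), Thbs2 of 1.17 (adjusted p = 0.148) and Spry4 of 0.59 (adjusted p = 0.141).

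Among 14 tested tip and stalk cell genes, a list that also holds Angpt2, Aplnr was called. Aplnr, the apelin receptor, fell from 1.86 and 2.53 FPKM at 22 °C to 0.142 and 0.140 FPKM at 4 °C (log2 fold change -1.48, SE 0.14, adjusted p = 0.0246). Its ligand gene Apln lies on the X chromosome and was listed at 0 in both 22 °C libraries, so no comparison was made. Cxcr4, a chemokine receptor, had a log2 fold change of 0.58 (adjusted p = 0.0669) and Plaur, the urokinase receptor, of 0.80 (adjusted p = 0.0996).

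Hypoxia regulators and targets included 1 called gene of 18. Egln3, a prolyl hydroxylase that marks hypoxia-inducible factors for degradation, rose from 1.77 and 2.62 FPKM at 22 °C to 10.5 and 9.04 FPKM at 4 °C (log2 fold change 1.77, SE 0.22, adjusted p = 0.0415). Slc2a1, a glucose transporter gene, had a log2 fold change of 1.28 (adjusted p = 0.0527) and Hif3a of 0.44 (adjusted p = 0.0561). Of the 18, 16 lay above and 1 below in both 4 °C libraries, against the 37.9% and 20.6% of all genes given above, and the median log2 fold change was 0.63 as deposited and 0.37 after median centring.

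Among 7 coactivators and nuclear receptors linked to Vegfa, Ppargc1a was called. This coactivator, known to raise Vegfa transcription in muscle and brown fat cells, rose from 10.9 and 10.8 FPKM at 22 °C to 107 and 73.6 FPKM at 4 °C (log2 fold change 2.92, SE 0.25, adjusted p = 0.0208). Its partner Esrra had a log2 fold change of 0.94 (adjusted p = 0.109) and Esrrg of 0.58 (adjusted p = 0.219). The median of the 7 was 0.40, and it was 0.14 after median centring and 0.14 after quantile normalization.

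These 6 called genes, Hspb1, Svep1, Fgf21, Aplnr, Egln3 and Ppargc1a, were called beside the difference in skeletal muscle markers given above. With the muscle score as covariate over all 8 libraries 0 genes of the whole table were called, while 3227 had an unadjusted p under 0.05. Leaving out 4 °C replicate 2 removed nearly all calls of the comparison, as given with the limits. The median log2 fold change of the muscle markers was 2.94 without replicate 2 and 3.96 without replicate 11. The part of muscle content in these calls was not tested.

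**Figure D3:**
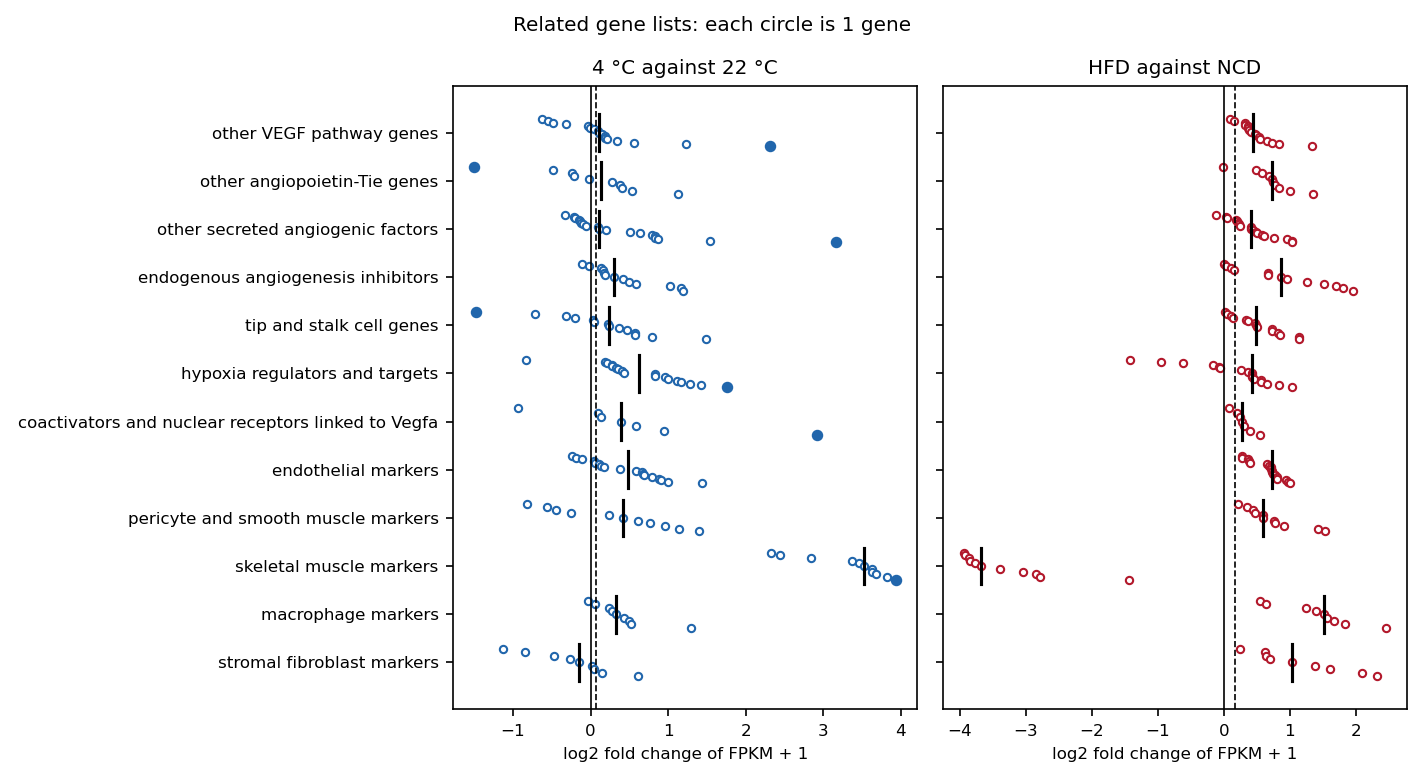
Log2 fold change of FPKM + 1 (horizontal axes) of the genes of each related list (rows) at 4 °C against 22 °C (left) and under HFD against NCD (right). Each circle is 1 gene, filled where called, the bars are list medians and the dashed line is the median of all genes tested, 0.07 and 0.18. Skeletal muscle markers lie far to the right in the cold comparison (median 3.53) and far to the left in the diet comparison (median -3.67).

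The second comparison asked how the same genes differ between HFD and NCD. Esm1 passed the filter through its HFD libraries alone, which sets its direction, so it is given by its values. Of the other 9 genes 0 were called, where limma called 0.0684% of the 17543 genes tested (0.0513% higher and 0.0171% lower). With no fold threshold 0.0855% of all genes passed and again 0 of the 9. All 9 had a log2 fold change above 0, and 6 had both HFD libraries above both NCD libraries. Over all genes tested, 79.3% had a positive log2 fold change and 39.9% had both HFD libraries above and 5.8% both below, so the direction alone is common in this comparison. After median centring the log2 fold changes of Vegfa, Vegfc, Kdr, Angpt1 and Angpt2 were below 0. Centring lowers every gene here by the same amount, so small positive changes turn by construction. After quantile normalization only those of Kdr and Angpt1 were below 0, and after rescaling only that of Kdr. With the endothelial score as covariate those of Vegfa, Vegfc, Pgf, Angpt1, Angpt2 and Tek were below 0, with SEs of 0.41 to 1.57. An unadjusted p under 0.05 was found for 2 of the 9, Angpt2 and Pgf, and for 2532 of all genes. The median log2 fold change was 0.33 over the 9 genes, 0.18 over all genes tested and 0.29 over genes averaging 1 FPKM or more.

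Angpt2 was at 0.259 and 0.1803 FPKM under NCD and at 0.407 and 0.681 FPKM under HFD. Both HFD libraries lay above all 6 other libraries of the series. The log2 fold change was 0.33 (SE 0.12, 95% interval 0.05 to 0.62, adjusted p = 0.278, limma). It was -0.019 after median centring, 0.21 after quantile normalization and 0.29 after rescaling. With satellite library type as covariate the adjusted p was 0.0386 at a change under the fold threshold. Tek was at 7.95 and 6.21 FPKM under NCD and at 10.3 and 12.1 FPKM under HFD (log2 fold change 0.60, SE 0.34, adjusted p = 0.476). Its change was 0.24 after median centring, 0.29 after quantile normalization and 0.45 after rescaling. Angpt1 was at 1.57 and 0.952 FPKM under NCD and at 1.16 and 2.13 FPKM under HFD, and its groups overlapped (log2 fold change 0.22, SE 0.27, 95% interval -0.42 to 0.86). The ratio of Angpt2 to Angpt1 was 0.166 and 0.189 under NCD and 0.3499 and 0.319 under HFD, with no overlap.

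Pgf was at 0.461 and 0.0669 FPKM under NCD and at 0.646 and 3.30 FPKM under HFD. HFD replicate 6 stood apart as the highest Pgf value of the series, and about 12.1 fragments stood behind the lowest, in NCD replicate 8. The log2 fold change was 1.09 (SE 0.41, 95% interval 0.13 to 2.06, adjusted p = 0.297, limma), and it was 0.40 without HFD replicate 6 and 1.79 without HFD replicate 2. With the muscle score as covariate over all 8 libraries it was 0.13 (SE 0.43), and with the endothelial score -1.84 (SE 1.47). The gene was called in 4 of 17 alternative settings, among them the satellite covariate (adjusted p = 0.0199) and the fit without NCD replicate 6 (adjusted p = 3.7e-05), in which the lone NCD library is assumed to vary like the HFD libraries.

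Vegfa was at 65.6 and 48.96 FPKM under NCD and at 63.2 and 72.9 FPKM under HFD. Its groups overlapped, and the log2 fold change was 0.26 (SE 0.46, 95% interval -0.82 to 1.33, adjusted p = 0.840) and turned to -0.10 after median centring. Vegfb was at 9.26 and 11.6 FPKM under NCD and at 14.7 and 14.3 FPKM under HFD (log2 fold change 0.45, SE 0.35, adjusted p = 0.609). Its change was 0.092 after median centring, 0.14 after quantile normalization and 0.29 after rescaling. Vegfc was at 0.426 and 0.439 FPKM under NCD and at 0.627 and 0.762 FPKM under HFD (log2 fold change 0.24, SE 0.13, adjusted p = 0.446). Both HFD libraries lay above both NCD libraries for Vegfb and Vegfc.

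Flt1 was at 4.92 and 7.73 FPKM under NCD and at 10.8 and 9.61 FPKM under HFD, with no overlap (log2 fold change 0.64, SE 0.35, 95% interval -0.19 to 1.46, adjusted p = 0.462). Its change was 0.28 after median centring, 0.30 after quantile normalization and 0.48 after rescaling. Kdr was at 4.16 and 13.2 FPKM under NCD and at 11.04 and 5.26 FPKM under HFD. The libraries of each group differed more than the groups did, and the log2 fold change was 0.018 (SE 0.55, 95% interval -1.28 to 1.31). Esm1 was at 0.0737 and 0.0273 FPKM under NCD and at 0.163 and 0.102 FPKM under HFD, all low values, and no test of it is given. The ratio of Kdr to Flt1 varied from 0.547 to 1.71 over the 8 libraries and overlapped between the groups of both comparisons.

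**Figure D4:**
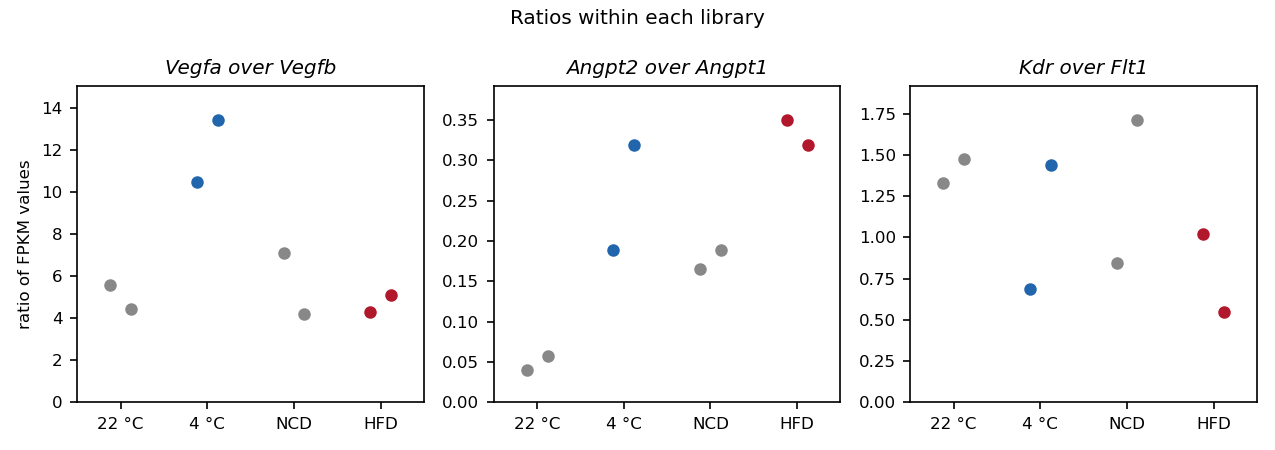
Ratios of FPKM values within each library (vertical axes, linear and starting at 0), by group on the horizontal axes. Each point is 1 library. Vegfa over Vegfb was 10.5 and 13.4 at 4 °C and at most 7.08 elsewhere, Angpt2 over Angpt1 was lowest at 22 °C (0.0406 and 0.0573), and Kdr over Flt1 overlapped between compared groups.

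NCD replicate 8 and both HFD libraries carry another prefix in their sample descriptions than the other 5 libraries, and what it stands for is not given. Within that prefix, 1 NCD library can be set against both HFD libraries. This gave a log2 fold change of 1.32 for Pgf, 0.36 for Flt1, 0.75 for Tek and -0.71 for Kdr. Among the cell type markers limma called genes of the white adipocyte list only, although the sums of several other lists separated between NCD and HFD. Endothelial markers summed to 163 to 220.9 FPKM under NCD and 294 to 382 FPKM under HFD. All 18 had a positive log2 fold change, as did 79.3% of all genes tested. Of these markers limma called 0 and gave 5 an unadjusted p under 0.05. The median was 0.73, and it was 0.37 after median centring and 0.41 after quantile normalization. Lymphatic endothelial markers summed to 3.66 to 5.04 FPKM and 10.5 to 13.8 FPKM, with 6 of 6 tested genes positive and 4 above in both HFD libraries. Their median was 0.71, and 0.36 after median centring. Pericyte and smooth muscle markers summed to 92.7 to 129 FPKM and 161 to 212 FPKM, with 11 of 11 positive. In both HFD libraries 7 of these 11 lay above, against 39.9% of all genes tested. Proliferation markers lay above in 6 of 6, with a median of 0.81 that was 0.45 after median centring. Macrophage markers, led by Lyz2, summed to 40.8 to 112 FPKM and 197 to 249 FPKM, and stromal fibroblast markers to 107 to 116 FPKM and 283 to 305 FPKM. Skeletal muscle markers summed to 545 to 1530 FPKM under NCD and 15.8 to 184 FPKM under HFD, and white adipocyte markers to 16.3 to 27.3 FPKM and 218 to 223 FPKM, with 4 of 7 called higher. Brown adipocyte markers summed to 5661 to 9755 FPKM under NCD and 5077 to 7754 FPKM under HFD and overlapped. Of these, 5 of 12 were positive, with 3 above and 2 below, and their median was -0.10, or -0.46 after median centring. The lowest p among them was that of Elovl3, a fatty acid elongase gene (log2 fold change -3.14, adjusted p = 0.118). Erythroid marker sums overlapped in both comparisons, with 0 of 4 tested genes called in either. The part of these cell types in the diet values of the 10 genes was not tested beyond the covariate settings. The endothelial score nearly followed the diet groups too, with the same limit.

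Limma called no gene of the other pathway lists under HFD, and leaving out 1 library gave 1 to 8 calls, the most without NCD replicate 6. In 6 of the 7 lists, 3 to 8 genes had an unadjusted p under 0.05. The 13 endogenous inhibitors had the highest list median apart from cell type markers, at 0.88, which was 0.52 after median centring. Of the 13, 10 lay above in both HFD libraries, against 39.9% of all genes tested. Col18a1, the collagen from which endostatin is cut, was at 1.98 and 1.46 FPKM under NCD and at 8.97 and 10.2 FPKM under HFD (log2 fold change 1.96, SE 0.30, adjusted p = 0.115). Thbs1, a matrix protein that restrains vessel growth, had a log2 fold change of 1.80 (adjusted p = 0.120) and Serpinf1, which encodes the inhibitor PEDF, of 1.70 (adjusted p = 0.151).

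Of 10 tested angiopoietin and Tie genes, 8 lay above in both HFD libraries, against 39.9% of all genes tested. Their median was 0.74 as deposited and 0.38 after median centring. The integrin gene Itga5 had a log2 fold change of 0.997 (adjusted p = 0.151), the adaptor gene Dok2 of 1.35 (adjusted p = 0.200) and Foxo1 of 0.78 (adjusted p = 0.299). Of 15 other VEGF pathway genes, leaving out Ccbe1, which passed the filter through HFD alone, 9 lay above, against 39.9% of all genes tested. The median of the 15 was 0.48. With Ccbe1 the median was 0.45, and it was 0.095 after median centring and 0.21 after quantile normalization. The genes with the lowest p were Rasip1 (log2 fold change 0.84, adjusted p = 0.238), Dab2 (1.34, adjusted p = 0.240) and Src (0.39, adjusted p = 0.317).

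Of 19 other secreted factors, 15 lay above in both HFD libraries, against 39.9% of all genes tested. Their median was 0.42 as deposited and 0.065 after median centring. Adm, the vasodilator adrenomedullin, was at 0.316 and 0.275 FPKM under NCD and at 1.80 and 1.496 FPKM under HFD (log2 fold change 1.03, adjusted p = 0.118). Bmp4 had a log2 fold change of 0.42 (adjusted p = 0.191) and Pdgfc of 0.51 (adjusted p = 0.235). Of 14 tip and stalk cell genes, among them Angpt2 but not Esm1, 9 lay above, against the same 39.9%. The median of the 14 was 0.49. With Esm1 the median was 0.49 as deposited and 0.14 after median centring. Cxcr4 had a log2 fold change of 0.82 (adjusted p = 0.151), Nrarp of 0.37 (adjusted p = 0.276) and Notch4 of 0.73 (adjusted p = 0.277).

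The hypoxia list had 8 of 17 genes above and 2 below in both HFD libraries, against 39.9% and 5.8% of all genes tested. Its lowest p was that of Adm, whose values are given above with the secreted factors and which lay above in both HFD libraries. Those below were Egln3 and Pdk1. Egln3 was at 1.61 and 2.63 FPKM under NCD and at 0.537 and 0.662 FPKM under HFD (log2 fold change -0.94, adjusted p = 0.169). Pdk1, a kinase that limits pyruvate oxidation, was at 29.4 and 15.6 FPKM and at 6.77 and 8.08 FPKM (log2 fold change -1.42, adjusted p = 0.207). Ppargc1a was at 4.39 and 5.86 FPKM under NCD and at 7.41 and 6.66 FPKM under HFD (log2 fold change 0.40, adjusted p = 0.616), Creb1 had 0.56 (adjusted p = 0.533) and Esrrg 0.31 (adjusted p = 0.730).

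Whether the cold and diet differences were unequal was tested in 1 limma fit over all 8 libraries, which do not share controls but differ in age. None of 9 genes was called, where 1.65% of 16559 genes were and 3107 had an unadjusted p under 0.05. Angpt1 came closest, with a difference of -1.76 between its cold and diet log2 fold changes (SE 0.38, unadjusted p = 0.00169, adjusted p = 0.059). The adjusted p was 0.0303 after median centring and 0.0315 with satellite type as covariate, both calls, and 0.0779 with a pseudocount of 0.1. Tek differed by -1.08 (SE 0.32, adjusted p = 0.126) and Vegfb by -0.91 (SE 0.34, adjusted p = 0.199), both lower at 4 °C and higher under HFD in every library. For Flt1 the difference was 0.016 (SE 0.37) and for Vegfa 0.49 (SE 0.44, adjusted p = 0.616).

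The genes whose pattern over the 8 libraries was most like that of a member were listed among 9928 autosomal protein-coding genes averaging 1 FPKM or more, by Pearson r of log2(FPKM + 1). The points share libraries and scaling, and r is a description. For Vegfa these were Inpp1 (r = 0.991), Pld6 (0.985), Pde4c (0.983), Fam133b (0.978) and Dio2 (0.977), which encodes the deiodinase that activates thyroid hormone. For Flt1 they were Nfx1 (0.991), Patl1 (0.991), Adcy4 (0.984), Pan2 (0.975) and Adamts9 (0.974), and for Kdr Dnajc21 (0.973), Kctd1 (0.973), Zmiz2 (0.944), Zfp609 (0.941) and Ackr3 (0.940). The lists of Angpt2 (Dek, Fam208a, Slf2, F11r and Plekha2, r from 0.970 to 0.990) and Esm1 (Aif1, Pld2, Prkci, Dpm2 and Dguok, r from 0.915 to 0.945) were drawn from 9929 genes. Among the members themselves, Vegfc and Angpt2 were most alike (r = 0.875), followed by Pgf and Angpt2 (0.847), Tek and Esm1 (0.843) and Vegfa and Flt1 (0.814). Vegfa and Kdr had an r of 0.470. Every r of Esm1 rests on low values, of about 3.99 to 31.9 fragments per library.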

How the data were processed

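RNA-Seq of mouse BAT was analysed from the table the authors deposited, which holds FPKM, 1 value per gene and library, with no pooling of replicates. Ribosomal RNA was depleted, and directional libraries were sequenced as paired ends of 100 bases. According to the submitters' processing notes, reads were mapped to GRCm38.p5 with TopHat2 2.0.10 and values were made with Cufflinks 2.2.1. The study's test used counts that were not used here.

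Groups and replicate numbers came from the sample labels. The linear models of limma 3.58.1 (R 4.3.3, eBayes with intensity trend) were fitted to log2(FPKM + 1) on the 4 libraries of a comparison, for autosomal genes with at least 0.1 FPKM in at least 2 libraries. P-values were two-sided and adjusted by Benjamini-Hochberg over all genes tested. A call needed an adjusted p under 0.05 and a log2 fold change of at least 1. The fit was tested on simulated data, and the results of that test are not given here. The members, the gene lists and the tests were chosen with earlier results of these data known. All 10 members were described. Of the other pathway lists, called genes were named, and where fewer than 3 were called also those with the lowest p, up to 3 per list and comparison. Nrp1, Tie1 and Apln were added after their values were seen. Of the marker lists, the most abundant genes were named. By their results, Lep, Nnat and Mest were also named for lying below at 4 °C, and Elovl3 for the lowest diet p of its list.

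Positions are those of GENCODE M21 (GRCm38), counted from base 1. Depth is not stated. Of 1259 to 3092 low FPKM values per library, 97.4% to 98.5% were whole numbers of fragments within 0.1, which gave the approximate fragments behind a level. Without molecular identifiers, such figures speak of counting error alone. Alternatives changed the pseudocount, the filter, the scaling, the covariates or the libraries used. Figures and summaries used Python 3.11.15, pandas 2.3.3, NumPy 2.4.6 and matplotlib 3.10.9.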

Additional observations from a re-analysis of the deposited data

How the results depend on the processing

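With 2 libraries a group, the number of calls depended on the setting, and the cause was not tested. The 252 genes called in the cold comparison became 474 with a pseudocount of 0.1, 142 with 0.01, 529 with a filter of 1 FPKM, 758 after median centring, 491 after quantile normalization, 580 after rescaling, 920 with X, Y and mitochondrial genes kept, 859 with the satellite covariate, 439 with all 8 libraries in 1 fit, and 0 with no filter, with no intensity trend and with a muscle or an endothelial score as covariate, where 986 to 4691 genes had an unadjusted p under 0.05. Leaving out 1 library gave 1 (without 4 °C replicate 2) to 767 (without 22 °C replicate 7). The 1 called member became 2 with a pseudocount of 0.1 (Pgf) and 2 at an adjusted p under 0.05 with no fold threshold, an alternative chosen after seeing the data. It became 0 with a pseudocount of 0.01, no filter, no trend and either score. Leaving out 1 library gave 0 or 1 members and 0 to 12 of the other pathway genes, of which 6 were called. In the diet comparison, 12 calls became 24 with a filter of 1 FPKM, 45 after median centring, 745 with the satellite covariate, 786 with the description prefix, 75 with all 8 libraries, 1 with the muscle score and 0 with no filter, quantile normalization, rescaling, X, Y and mitochondrial genes kept, the endothelial score or no trend, where 397 or more had an unadjusted p under 0.05. Leaving out 1 library gave 98 to 726 calls, 0 or 1 members, and 1 to 8 other pathway genes, of which 1 was called after median centring. Pgf was the 1 member called with the satellite covariate, with the prefix, and without NCD replicate 6 or HFD replicate 2. The 273 calls of the difference between both effects became 484 after median centring and 836 with the satellite covariate, with 1 member, Angpt1, in each.

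Signs turned as follows, where median centring shifts all genes of a comparison by the same amount. In the cold comparison they turned with the endothelial score for Vegfa (-0.10), Vegfb (0.28), Pgf (-1.11) and Angpt2 (-0.38), and with the muscle score for Vegfc (0.15) and Kdr (-0.66). Scaling turned Kdr (-0.056 after median centring, -0.17 after quantile normalization, -0.18 after rescaling) and Angpt2 (-0.23 and -0.058 after centring and rescaling). Leaving out 1 library gave Vegfc -0.078 to 0.066 and Kdr -0.43 (without 4 °C replicate 11) to 0.83. In the diet comparison, median centring gave Vegfa -0.10, Vegfc -0.11, Kdr -0.34, Angpt1 -0.14, Angpt2 -0.019 and Esm1, which passed the filter through HFD alone, -0.25, quantile normalization Kdr -0.35 and Angpt1 -0.073, and rescaling Kdr -0.14. The muscle score gave Vegfa -0.058 and Angpt1 -0.031, and the endothelial score Vegfa -1.02, Vegfc -0.16, Pgf -1.84, Angpt1 -0.70, Angpt2 -0.27 and Tek -0.59. The prefix gave Kdr -0.71, and leaving out 1 library Kdr -0.71 to 0.75 and Angpt1 -0.050 (without HFD replicate 6) to 0.48. The difference of both effects for Flt1 was -0.017 with a pseudocount of 0.1. The other 129 cold values of members and 135 diet values of members without Esm1 kept their direction and their side of the threshold. The endothelial score itself differed between the compared groups by 0.44 and 0.67. Within a group its libraries lay close together, at 3.21 and 3.18 for 22 °C and 3.57 and 3.71 for 4 °C. The values were 2.86 and 2.76 for NCD and 3.42 and 3.53 for HFD. The score thus nearly followed the groups, and signs that turned with it decide nothing about vessel content.

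No analysis paired by replicate number was possible, because 22 °C and 4 °C share no number and NCD and HFD share only number 6. The satellite covariate, with 1 satellite-high and 1 satellite-low library in each group, blocks by library type instead, and its counts are given above. Esm1, at most 31.9 fragments, and Pgf in NCD replicate 8 are limited by depth.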
